A study of Mus musculus with 9 samples.

Results

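Carboxylesterases are serine hydrolases that split ester and amide bonds. In the liver they are abundant in the lumen of the endoplasmic reticulum of hepatocytes, where they hydrolyse ester drugs and prodrugs and also neutral lipids such as triacylglycerol. Mouse genes of the family lie in tandem arrays, and their products fall into the Ces1, Ces2 and Ces3 groups by sequence. The 10 genes described here are Ces1b, Ces1c, Ces1d, Ces1e, Ces1f, Ces1g, Ces2a, Ces2e, Ces3a and Ces3b, from a table of 30519 transcripts. They were taken by name as liver members of the family, with their values in the knockout comparison already known, so the difference between genotypes is described below without a test.

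Liver RNA was sequenced after polyA selection from 4 miR-122 knockout (KO) mice and 5 floxed littermates (WT), 6 weeks old. Hepatocytes make more miR-122 than any other microRNA, and the same livers also served for Argonaute CLIP, a method that maps microRNA target sites. The KO animals were 1 female (replicate 1) and 3 males (replicates 2 to 4), and the WT animals were 3 females (replicates 1 to 3) and 2 males (replicates 4 and 5). The labels name no Cre driver, strain or clone, and do not say whether the deletion was limited to hepatocytes. The microRNA itself was not analysed here, and the genotype of each library therefore rests on its label. WT replicate 3 was labelled female but stands under a column named male, and its Y-linked transcripts Ddx3y (0.0422), Uty (0) and Eif2s3y (0.114) led to the label being kept.

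Each family gene is represented by 1 transcript, and its level is a normalised abundance per transcript length, on a scale like TPM. For most members the annotation holds further transcripts (6 in all for Ces1f and 5 for Ces3a), which have no row of their own. Reads per library, recovered from the spacing of low values, numbered 15.4 to 22.1 M among KO and 12.2 to 19.7 M among WT livers, with the fewest in the 2 WT males. The members were covered by a mean of 1465 (Ces1e) to 56738 (Ces1c) estimated reads per library, and the lowest single value, Ces3b in the KO female, rested on 63.4. The deposited values summed to 0.711 to 1.17 M per library. Scaling all libraries to equal totals shifted the median log2 difference (KO minus WT) of all tested transcripts from 0.03 to 0.37, so directions that depend on it are given below. Among 3934 transcripts (35.9%) called at an adjusted p under 0.05, 59.6% were higher in KO, against 94.4% of 5331 with equal totals and 46.8% of 4098 with median-of-ratios scaling.

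Hepatocyte markers were high in every library (KO livers summed to between 65125 and 81490, WT livers to between 64191 and 130673), and of 11 tested, none was called higher and 3 were lower in KO. Apoa1, Apoa2 and Fgb, which encode secreted plasma proteins, were these 3, at 1.37-fold, 1.43-fold and 1.61-fold lower. Of all tested transcripts 21.4% were called higher and 14.5% lower, shares to set beside each marker count in this paragraph. Of 19 alternatives, 4 ended the call of Apoa1, 10 that of Apoa2 and 2 that of Fgb, and with equal totals their log2 differences were -0.053, -0.12 and -0.26 (adjusted p = 0.759, 0.592 and 0.158). Markers of most other cell types of the liver were higher in KO. Cholangiocyte and progenitor markers summed to between 561 and 935 in KO and between 37.1 and 62.5 in WT livers (4 of 5 tested were higher, led by Spp1 and Epcam, with Krt19 and Sox9), and stellate markers to 104 to 127 and 28.8 to 37.5 (8 of 8 higher, among them Col1a1, Col1a2, Col3a1 and Pdgfrb). Macrophage markers summed to 419 to 492 and 228 to 299 (8 of 8 higher, among them Lyz2, Cd68, Csf1r and Clec4f), and lymphocyte markers to 11.2 to 17.5 and 3.97 to 9.79 (1 of 2 tested higher, Ptprc). Ptprc is not confined to lymphocytes, and the authors' deposited table gives it a q of 0.488. Endothelial markers summed to 58.1 to 71.9 and 54.6 to 75.8, with Cdh5 higher and Lyve1 lower. Among males alone Sox9, Cdh5 and Lyve1 lost the call by limma (adjusted p = 0.0507, 0.0817 and 0.0949), and Lyve1 lost it with equal totals too (0.0651). No marker was at 0 in all libraries. The part of these shifts in the values below was not tested, and in bulk liver fewer cells of a type and less RNA per cell cannot be told apart.

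The reaction of a carboxylesterase runs through a serine in a short glycine-rich turn, and the stretch of coding sequence around the codon of that serine is shown because it lets the reader see how near the members are to each other. Each line gives 30 bases of the listed transcript, all within 1 exon, with the serine codon in capitals and its position in GRCm38, the assembly that mm10 names. The Ces1 genes are read on the minus strand and the Ces2 and Ces3 genes on the plus strand.

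Ces1b: gtctttgggtcaTCAgcaggaggtgtcagt (chr8:93071879-93071908)
Ces1c: atctttggagagTCAtcagggggtatcagt (chr8:93123112-93123141)
Ces1d: atctttggagagTCAgcaggaggtttcagt (chr8:93187755-93187784)
Ces1e: atctttggagagTCAgcaggaggtgaaagt (chr8:93217511-93217540)
Ces1f: atctttggagagTCAgcaggaggttacagt (chr8:93269986-93270015)
Ces1g: atcttcggcgagTCAgcaggaggtgaaagt (chr8:93328390-93328419)
Ces2a: atatttggagtcTCAgcaggaggtacaagt (chr8:104737404-104737433)
Ces2e: atttttggagagTCAgcaggtggcacaagt (chr8:104929809-104929838)
Ces3a: atcttcggtaacTCTgctggaggcattatt (chr8:105051580-105051609)
Ces3b: atcttcggtaacTCTgctggaggcatgatt (chr8:105086670-105086699)

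Within a group, 22 to 29 of the 30 bases were identical (17 pairs, median 25), and between groups 18 to 25 were (28 pairs, median 20). The serine codon was TCT in both Ces3 genes and TCA in the other 8 members. Every member had 1 such stretch.

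The far end of the coding sequence is shown for a second reason. Carboxylesterases that stay in the endoplasmic reticulum carry a short retention signal at the carboxyl end that closes with leucine, whereas Ces1c is the carboxylesterase that rodents secrete into plasma. Each line gives the last 18 coding bases, with the last 4 sense codons in capitals and the stop codon at the end.

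Ces1b: cacAGAGAACACAAAtga
Ces1c: cacACAGAACACAAAtga
Ces1d: gaaCATGTTGAGCTCtga
Ces1e: gaaCACACTGAGCTGtga
Ces1f: tacCACAATGAGCTGtga
Ces1g: gaaCATGTTGAACTGtga
Ces2a: aagCATGCAGAGCTGtag
Ces2e: aggCACAAAGAGTTGtag
Ces3a: gttCCAGAGGAGCTCtga
Ces3b: gttCCAGAGGAGCTCtga

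The last sense codon was a leucine codon in 8 members and AAA in Ces1b and Ces1c. Ces3a and Ces3b shared all 18 bases.

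How well neighbouring genes can be told apart by short reads depends on the sequence they share. Of the 31-base words in each transcript, the word length that kallisto uses by default, 42.6% in Ces3a occur in Ces3b and 36.1% in Ces3b occur in Ces3a. Ces1c shared 30.1% and Ces1b 23.9% of its words with any other gene, mostly with each other. Ces2a shared 37.4% of its words, and 30.9% of all its words occur in the predicted gene Gm7208, which has no row in the table. The other 5 members shared between 5.54% (Ces1f) and 11.9% (Ces2e). Levels of Ces3a, Ces3b, Ces1b, Ces1c and Ces2a are therefore less certain than those of the rest, since kallisto divides such reads by estimate.

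In WT livers Ces1c was the most abundant member, at 2129 ± 564 (SD, n = 5), and 54th of all transcripts. Ces3a, which has been described as a triacylglycerol hydrolase, followed at 679 ± 244, and Ces1d, the triacylglycerol hydrolase of hepatocytes, at 423 ± 112. Below them stood Ces1f (239 ± 50.04), Ces2a (162 ± 26.6), Ces1g (146 ± 33.4), Ces3b (118 ± 54.0), Ces2e (98.3 ± 13.7), Ces1b (79.9 ± 20.8) and Ces1e (68.8 ± 17.8). Only Ces1c and Ces3a among neighbours in this order had WT ranges that did not overlap. In KO livers the first 4 places were held by the same genes in the same order. Ces3b moved from 7th to 10th and Ces2a from 5th to 7th, while Ces1g moved from 6th to 5th, Ces2e from 8th to 6th and Ces1e from 10th to 8th.

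**Figure D1:**
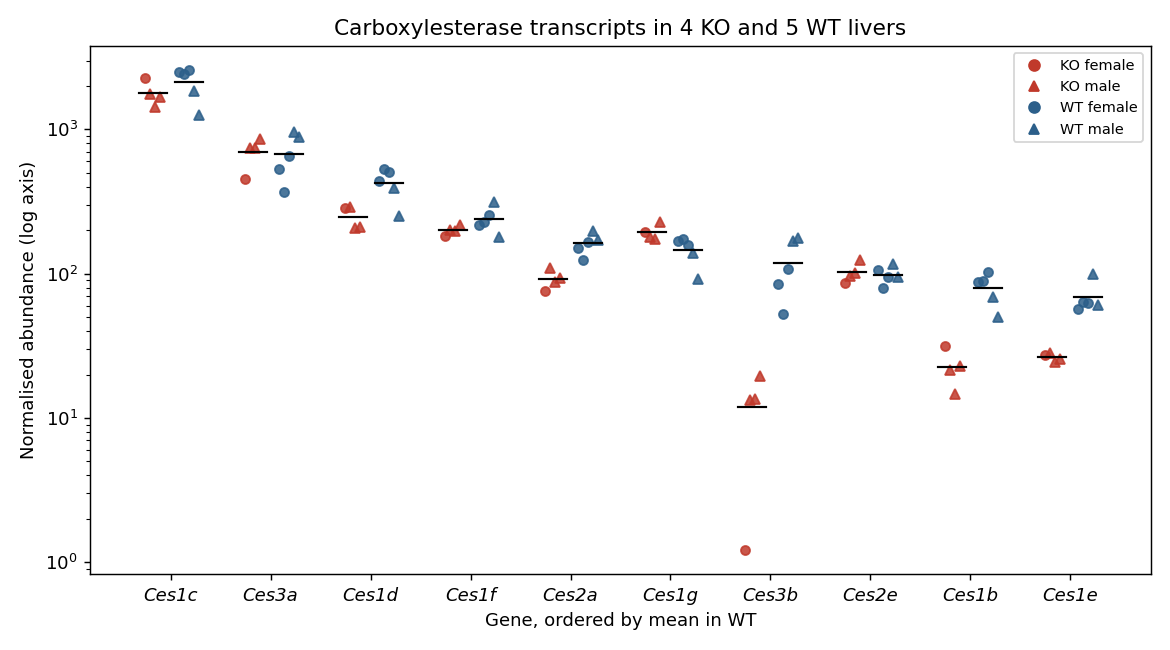
Normalised abundance (log axis) of the 10 carboxylesterase transcripts in each liver, ordered by WT mean; points are single animals, circles females and triangles males, and bars are group means. The 4 KO livers lie below all 5 WT livers for Ces1b, Ces1e, Ces2a and Ces3b, and the lowest point is Ces3b in the KO female at 1.21.

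By mean, 7 of the 10 members were lower and 3 higher in KO livers, against 5 and 5 with equal totals, and 9 and 1 with median-of-ratios scaling, with sex as a covariate or without KO replicate 4 or WT replicate 2. The median log2 difference (KO minus WT) was -0.49 over the members and 0.03 over all tested transcripts, and with equal totals these medians were -0.088 and 0.37. On the deposited scale every KO liver lay below every WT liver in 4 members, an arrangement found in 12.1% of all tested transcripts. With equal totals Ces1b and Ces2a lose this separation, while Ces1e and Ces3b keep it. With limma 5 members had an adjusted p under 0.05 and lower values in KO (14.5% of all tested transcripts), none had higher values (21.4%), and the authors' deposited table gives the same number of members a q under 0.05 (25.2% of its transcripts). These counts describe genes picked from this same comparison and carry no evidence of their own.

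The Ces3 pair held the member with the largest ratio between genotypes and a member with similar means. Ces3b stood at 1.21, 13.4, 13.6 and 19.7 in KO and at 84.5, 53.0, 107, 169.6 and 178 in WT livers. The KO female was far below the KO males, and the highest KO liver was below the lowest WT liver. The means were 11.96 ± 7.74 (n = 4) and 118 ± 54.0 (n = 5), 9.90-fold lower in KO, with a log2 difference of -3.46 (SE 0.63). In the authors' deposited table the coefficient was -3.77 (SE 0.90), as log2.

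Its neighbour and closest relative Ces3a stood at 451, 738, 739.7 and 863 in KO and at 535, 368, 651, 955 and 887 in WT livers. These ranges overlapped almost entirely. The means, 698 ± 174 and 679 ± 244, were 1.03-fold apart, with a log2 difference of 0.08 (SE 0.29) whose sign turned with sex as a covariate (-0.21), with median-of-ratios scaling (-0.01), among males alone (-0.24) and without KO replicate 4 (-0.03) or WT replicate 2 (-0.12). It was 0.48 with equal totals and 0.28 without KO replicate 1. In both genotypes the females had the lowest Ces3a values.

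**Figure D2:**
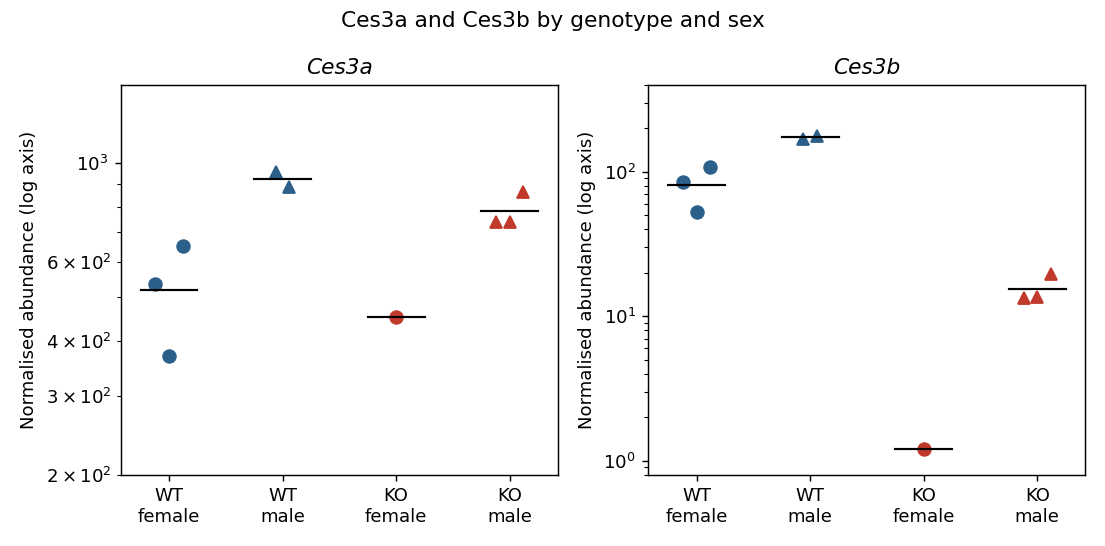
Normalised abundance (log axes) of Ces3a and Ces3b by genotype and sex; points are single livers and bars are means (the KO female is a single animal). On the deposited scale Ces3a had means of 518 and 921 in WT females and males, and 451 and 780 in KO. For Ces3b these were 81.6 and 174 in WT and 1.21 and 15.5 in KO. The sex difference of Ces3a had an adjusted p of 0.0851 with limma, and its genotype log2 difference was 0.48 with equal totals.

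Within the Ces1 group the means ran from 3.52-fold lower to 1.32-fold higher in KO. Ces1b stood at 31.7, 21.5, 14.6 and 23.1 in KO and at 88.1, 89.4, 103, 69.0 and 49.8 in WT livers. On the deposited scale the groups did not overlap, and in both the highest values came from females. With equal totals the KO female passes the lowest WT male. Its mean was 3.52-fold lower in KO (22.7 ± 7.06 against 79.9 ± 20.8), a log2 difference of -1.78 (SE 0.25).

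Ces1e encodes egasyn, which holds beta-glucuronidase in the endoplasmic reticulum. It stood at 27.5, 28.3, 24.5 and 25.7 in KO and at 57.0, 63.6, 62.8, 100.2 and 60.2 in WT livers. The KO values lay close together and below all WT values, and WT replicate 4 stood above the rest of its group. The mean was 2.60-fold lower in KO (26.5 ± 1.71 against 68.8 ± 17.8), a log2 difference of -1.31 (SE 0.15).

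Ces1d stood at 287, 289, 208 and 209 in KO and at 441, 532, 504, 390.5 and 249 in WT livers. A single WT liver, the male replicate 5, fell within the KO range, and the other 4 were above it. The mean was 1.71-fold lower in KO (248 ± 46.0 against 423 ± 112), a log2 difference of -0.74 (SE 0.22) that was -0.34 with equal totals.

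The remaining Ces1 genes overlapped between genotypes. Ces1c stood at 2266, 1762, 1432 and 1674 in KO and at 2509, 2439, 2582, 1852 and 1263 in WT livers. The 4 females held the highest values of all 9 livers, whatever their genotype. Its log2 difference of -0.23 (SE 0.23) turned to 0.17 with equal totals and to 0.08 among males alone, and was -0.40 without WT replicate 5.

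Ces1f, a microsomal lipase of the group, stood at 184, 202, 196 and 219 in KO and at 218, 229.7, 255, 314 and 179 in WT livers. The lowest liver of all was the WT male replicate 5, and the highest the other WT male. The log2 difference of -0.23 (SE 0.15) turned to 0.16 with equal totals and was -0.13 without WT replicate 4.

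Ces1g, which hydrolyses triacylglycerol and cholesteryl ester, was the Ces1 gene with a higher mean in KO. It stood at 195, 181, 173 and 227 in KO and at 169, 174, 159, 138 and 91.9 in WT livers. The groups overlapped only where KO replicate 3 lay just below WT replicate 2, and the WT males were lowest. The mean was 1.32-fold higher in KO (194 ± 23.5 against 146 ± 33.4), a log2 difference of 0.43 (SE 0.18), which was 0.83 with equal totals, 0.77 among males alone and 0.27 without WT replicate 5.

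The Ces2 members stood apart from each other, since Ces2a was lower in every KO liver on the deposited scale and Ces2e had similar means. Ces2a stood at 76.3, 109, 87.5 and 92.9 in KO and at 149.8, 125, 166, 197 and 172 in WT livers. All KO livers lay below all WT livers on this scale, but with equal totals the highest KO liver passes the lowest WT liver. The mean was 1.77-fold lower in KO (91.4 ± 13.6 against 162 ± 26.6), a log2 difference of -0.81 (SE 0.14), or -0.42 with equal totals.

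Ces2e stood at 86.5, 96.1, 101.3 and 124 in KO and at 106, 79.6, 94.5, 116 and 95.1 in WT livers. The ranges overlapped, and the means of 102 ± 15.9 and 98.3 ± 13.7 were 1.04-fold apart. Its log2 difference of 0.05 (SE 0.13) turned to -0.04 with median-of-ratios scaling, to -0.03 with sex as a covariate and to -0.05 and -0.02 without KO replicate 4 or WT replicate 2, and was 0.45 with equal totals.

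**Figure D3:**
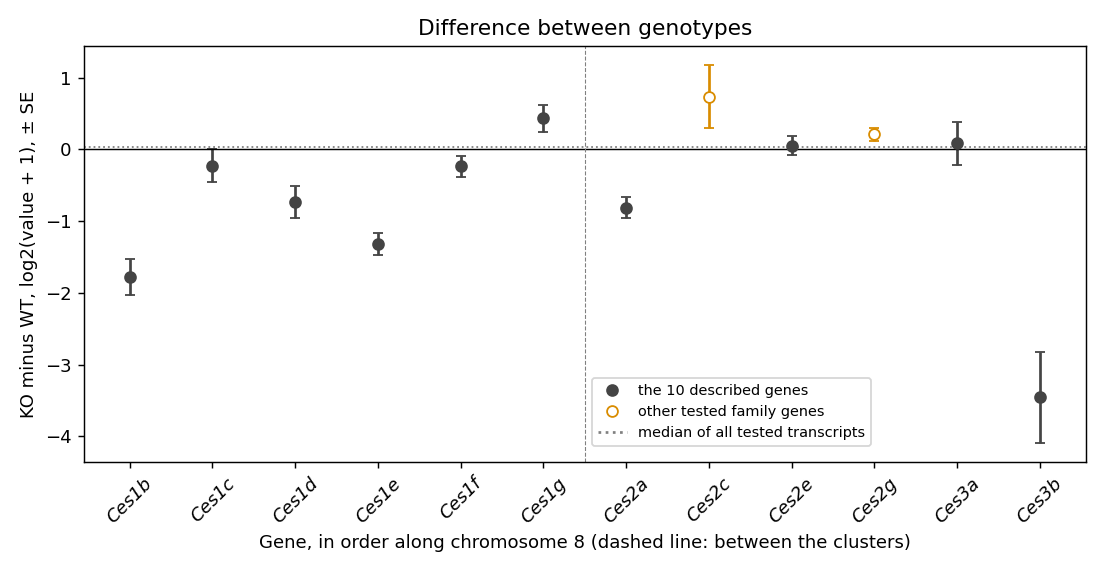
Log2 difference (KO minus WT) of log2(value + 1) with its SE for the carboxylesterase transcripts in chromosomal order; filled points are the 10 described genes, open points other tested family genes, and the dotted line is the median of all tested transcripts (0.03). Ces1b (-1.78) and Ces3b (-3.46) lie at the outer ends of the row, and neighbouring genes such as Ces3a and Ces3b or Ces2a and Ces2c stand apart.

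Because sexes were unevenly divided between genotypes, ratios were also taken within each sex, with 1 KO female and no replicate for that sex in KO. Ces1b was lower in KO by similar factors in males (3.01) and females (2.95), as was Ces2a (1.91 and 1.93). For Ces1e the factors were 3.07 and 2.22, and for Ces1d 1.36 and 1.71. For Ces3b they were 11.2 in males and 67.4 in females. Whether these factors differ between the sexes was not tested.

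The sum of the 10 transcripts ran from 2991 to 3606 in KO and from 3225 to 4685 in WT livers, with means of 3378 ± 268 and 4144 ± 549. The ranges overlapped through WT replicate 5. As a share of all deposited values the members took 0.444% ± 0.0439 in KO and 0.417% ± 0.0843 in WT. Ces1c made up 52.5% ± 7.04 of the sum in KO and 50.7% ± 8.98 in WT, Ces3a 20.9% and 17.0%, and Ces3b 0.361% and 2.99%.

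**Figure D4:**
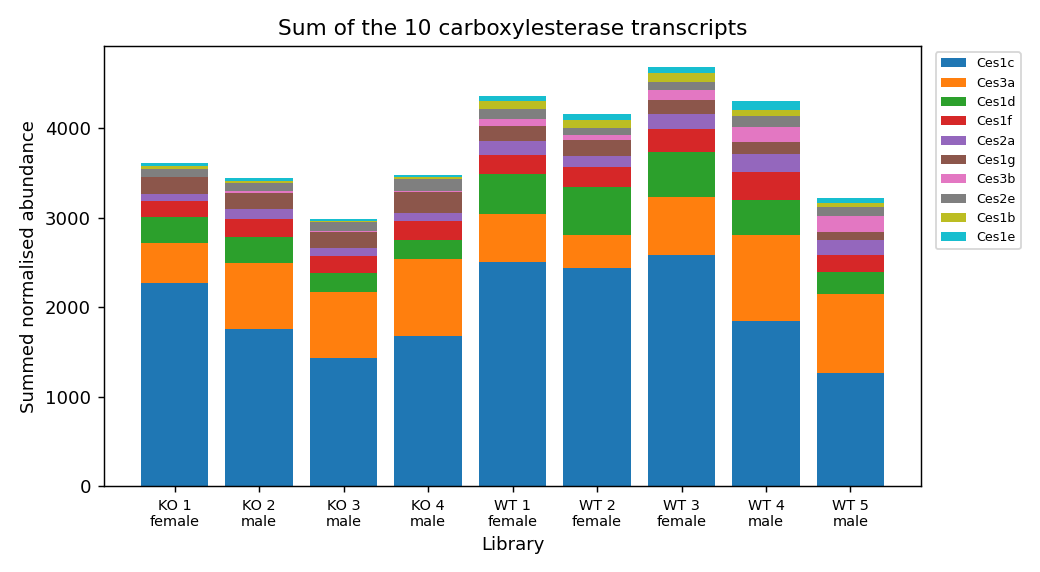
Stacked normalised abundance of the 10 carboxylesterase transcripts in each library, labelled by genotype, replicate and sex. Ces1c is the largest part of every bar, the tallest bar is WT replicate 3 (4685) and the shortest KO replicate 3 (2991), and WT replicate 5 (3225) lies within the KO range.

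The difference between males and females was not used to choose the members and was tested over all transcripts, with genotype in the model (5 males, 4 females). No member reached an adjusted p under 0.05 with limma, where 50 of 10950 transcripts (0.457%) did. At an unadjusted p under 0.05 there were 6 of the 10 members, 3 higher and 3 lower in males, and 1036 (9.46%) of all transcripts. The members' median log2 difference (male minus female) was 0.13 and that of all transcripts 0.0032. The 2 WT males were also the shallowest libraries and their deposited values were divided by the smallest inferred size factors (0.658 and 0.602), and the part of this in the sex difference was not tested.

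Both Ces3 genes were higher in males. Ces3b was 2.13-fold higher in WT males than in WT females (174 against 81.6) and 12.8-fold higher in KO males than in the KO female. Its log2 difference was 1.81 (SE 0.36, 95% interval 1.00 to 2.62, adjusted p = 0.0821). Without the KO female the difference was 1.14 (adjusted p = 0.127). The adjusted p was 0.0472 with a pseudocount of 5 and between 0.0651 and 0.221 under the other alternatives. Ces3a was 1.78-fold higher in WT males and 1.73-fold higher in KO males, with a log2 difference of 0.83 (SE 0.17, 95% interval 0.46 to 1.21, adjusted p = 0.0851). In both genes all 5 males stood above the females of their own genotype. Ces2a was also higher in males by mean, with a log2 difference of 0.33 (SE 0.11, interval 0.07 to 0.59, adjusted p = 0.382).

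Ces1b, Ces1c and Ces1d pointed the other way. Ces1b was 1.57-fold and 1.61-fold higher in females of WT and KO, with a log2 difference (male minus female) of -0.67 (SE 0.16, interval -1.03 to -0.31, adjusted p = 0.157), and an adjusted p of 0.0395 with equal totals. Ces1c was 1.61-fold and 1.40-fold higher in females, with a log2 difference of -0.63 (SE 0.14, interval -0.94 to -0.31, adjusted p = 0.123). Ces1d was 1.54-fold and 1.22-fold higher in females, with a log2 difference of -0.52 (SE 0.17, interval -0.92 to -0.12, adjusted p = 0.370) that was -0.32 without WT replicate 5. For Ces1g the interval was -0.73 to 0.02, for Ces1e -0.18 to 0.55, for Ces1f -0.29 to 0.44 and for Ces2e -0.06 to 0.51, and none of these shows the sexes to be alike.

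**Figure D5:**
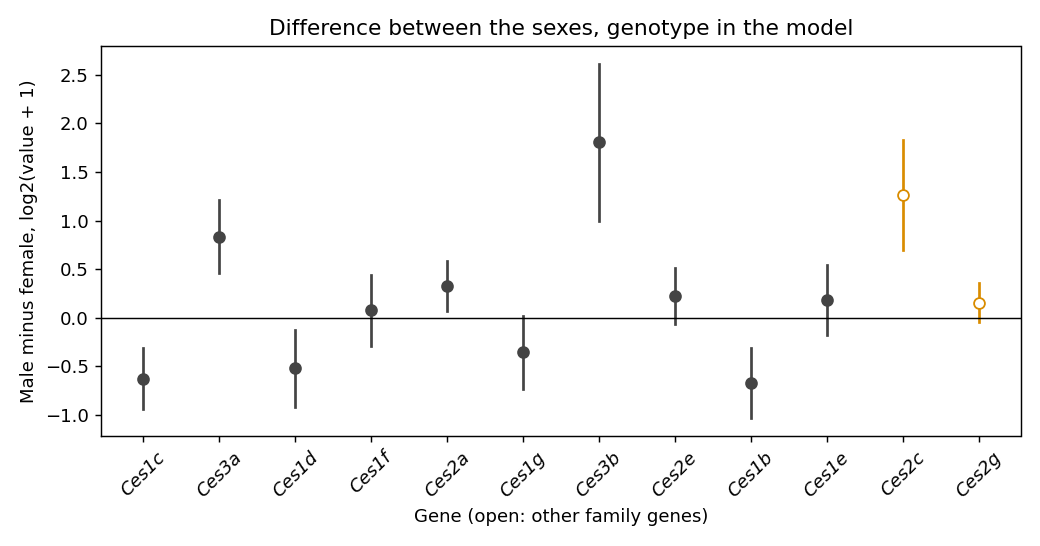
Log2 difference between the sexes (male minus female, genotype in the model) with 95% intervals; filled points are the 10 described genes in order of WT mean, open points 2 other family genes. The intervals of Ces3a, Ces3b, Ces2a and Ces2c lie above 0 and those of Ces1b, Ces1c and Ces1d below it, and no adjusted p of these genes is under 0.05.

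The other 10 family genes in the table were mostly near the floor, and only Ces2c and Ces2g passed the minimum mean of 1. Ces2c, an esterase known to hydrolyse acylcarnitine, stood at 25.7, 34.1, 34.4 and 49.8 in KO and at 14.6, 11.3, 11.97, 34.6 and 52.6 in WT livers. All KO livers were above the 3 WT females, and the WT males were not below the KO range. Its log2 difference of 0.74 (SE 0.44) had an adjusted p of 0.225. It was 1.06 (adjusted p = 0.0378) without WT replicate 5 and 1.12 (0.0287) with equal totals, but 0.29 (0.395) with sex as a covariate and -0.13 (0.726) among males alone. Of its words 58.2% are shared, 50.2% of all with the pseudogene Ces2d-ps. Between the sexes its log2 difference was 1.26 (adjusted p = 0.0821).

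Ces2g stood at 21.3, 20.9, 21.3 and 20.5 in KO and at 18.1, 15.8, 16.1, 21.0 and 19.6 in WT livers. The log2 difference of 0.21 (SE 0.09) had an adjusted p of 0.1002. It was 0.26 (adjusted p = 0.0432) without WT replicate 4 and 0.59 (0.00251) with equal totals, but 0.13 (0.308) with median-of-ratios scaling, 0.16 (0.206) with sex as a covariate and 0.041 (0.790) among males alone. Ces4a, at the far end of the Ces2 and Ces3 array beside Ces3b, was listed at 0.0566, 0.0831, 0 and 0 in KO and at 0.480, 0.154, 0.308, 1.60 and 5.33 in WT livers. Its mean lay under the minimum, so it was not tested here, and the authors' deposited table gives it a q of 0.00238 on a mean of 22.4 estimated reads. Ces2b reached 2.91 in WT replicate 5 and stayed between 0.215 and 0.720 in the other 8 livers. Ces1a, Ces5a, Ces2h, Ces2d-ps, Ces1h and Ces2f were listed at 1.10 or below in every library.

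MicroRNAs recognise sites, mostly in 3′ UTRs, that pair with their seed. Matches to its seed, ACACTCCA or the 7-base parts ACACTCC and CACTCCA, were looked for on the sense strand of the annotated 3′ UTRs. None of the 10 members holds one, in UTRs of 150 (Ces1c) to 667 bases (Ces3b). Among 9834 tested transcripts with a UTR of at least 50 bases, 1287 (13.1%) do. That share was not matched to the UTR lengths of the members, so it sets no expected number for them. No match says only that these letters are not in these windows. Among the other family genes, Ces2g and Ces2b hold 1 match each, shown with 8 bases on either side and the match in capitals.

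Ces2g: ctccttttACACTCCActgggact (chr8:104968687-104968694 for the capitals, plus strand, GRCm38)
Ces2b: aaaaagggACACTCCtccattgt (chr8:104839006-104839012 for the capitals, plus strand, GRCm38)

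The Ces2g match begins at base 256 of a UTR of 1106 bases and the Ces2b match at base 550 of 1637. A match is a description of the sequence and does not show that the microRNA binds there.

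The genes lie in a pair of arrays on chromosome 8. The first runs from Ces1a to Ces5a at chr8:93020214-93535830 and holds the 6 Ces1 members, and the second runs from Ces2a to Ces4a at chr8:104734003-105150109 and holds the Ces2 and Ces3 members. The nearest tested protein-coding genes, numbered predicted genes and clones left out, were not all close to the first array. Fto lies 1352 kb, Nudt21 480 kb and Ogfod1 501 kb away from it. Among these neighbours Lpcat2, a lysophospholipid acyltransferase, was 2.56-fold higher in KO (2.17 ± 0.370 against 0.847 ± 0.130, adjusted p = 6.30e-04). The matrix metalloproteinase Mmp2 was 3.83-fold higher (5.28 ± 0.774 against 1.38 ± 0.211, adjusted p = 1.90e-05), and Fto, an RNA demethylase, 1.60-fold higher (adjusted p = 2.01e-04). On the other side Nudt21 and Ogfod1 had adjusted p-values of 0.0641 and 0.628, and negative log2 differences that turned to 0.099 and 0.19 with equal totals. Nudt21 passed the threshold as lower with median-of-ratios scaling (0.0223) and without WT replicate 1 (0.0442). Around the second array Fam96b, Pdp2, Nae1, Cbfb, Tradd and Fbxl8 did not reach the threshold, with log2 differences between -0.23 and 0.22. With equal totals Fam96b, Tradd and Fbxl8 passed it as higher (adjusted p = 0.00197, 0.0224 and 0.0347) and Pdp2 and Nae1 turned to 0.11 and 0.22. With median-of-ratios scaling Nae1 passed it as lower (0.0462) and Cbfb turned to -0.037.

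Among 30 tested enzymes of other families that hydrolyse esters, 2 were higher and 9 lower in KO, with a median log2 difference of -0.17, where 21.4% of all tested transcripts were higher and 14.5% lower and this split turns with scaling as given above. Pon1, the paraoxonase that hepatocytes secrete onto high-density lipoprotein, was 2.58-fold lower (473 ± 87.6 against 1218 ± 356, adjusted p = 0.00220). Pnpla8 (38.8 against 54.7, adjusted p = 0.00589), Afmid (18.4 against 34.3, adjusted p = 0.00933) and the monoacylglycerol lipase Mgll (23.9 against 44.9, adjusted p = 0.0115) were also lower, and all 3 lost the call with equal totals and among males alone. Abhd2 was 2.80-fold higher (63.4 ± 9.14 against 22.6 ± 7.63, adjusted p = 9.17e-04), and Abhd4 was higher at 16.7 against 13.7 (adjusted p = 0.0245), a call that was lost under 8 of 19 alternatives.

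Of 22 nuclear receptors and other factors known to act on xenobiotic genes, 6 were higher and 1 lower in KO, with a median log2 difference of 0.02, and the share higher is near the 21.4% of all tested transcripts. Ahr, the aryl hydrocarbon receptor, rose from 8.13 to 14.8 (adjusted p = 0.00114), and its partner Arnt from 6.72 to 8.74 (adjusted p = 0.0151, and 0.169 among males alone). Onecut1, a hepatocyte and biliary factor, rose from 2.50 to 8.45 (adjusted p = 0.00568), and Stat5b, which carries the growth hormone signal behind many sex differences of the liver, from 5.10 to 8.54 (adjusted p = 0.00887). The bile acid receptor Nr1h4 fell from 55.9 to 36.5 (adjusted p = 0.0228), and this call was lost without KO replicate 1 (adjusted p = 0.0620), among males alone (0.342) and with equal totals (0.506). None of the 8 tested partners of carboxylesterases and retention receptors of the endoplasmic reticulum was called by limma, against 35.9% of all tested transcripts. Of these 8, 1 had an unadjusted p under 0.05, against 5006 of all 10950. The remaining gene of that list, the retention receptor Kdelr3, had too low a mean to be tested, at 1.75 ± 0.335 in KO and 0.251 ± 0.141 in WT with no overlap. The authors' deposited table gives Kdelr3 a q of 0.00669. Among list genes named as called by limma, markers included, it gives a q above 0.05 to Arnt (0.110), Abhd4 (0.177) and Apoa1 (0.108). Krt19 (0.0667), Cdh5 (0.0595) and Ptprc (0.488) were above 0.05 as well, and the rest were below it. Gusb, the beta-glucuronidase that Ces1e binds, stood at 12.2 in KO and 10.1 in WT (adjusted p = 0.0636). No gene of these 3 lists was called between the sexes.

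For the member of each group with the highest WT mean, the transcripts outside the family with the most similar pattern were found by Pearson r of log2 values over the 9 libraries after each genotype's mean was subtracted. These r describe 9 points that share sex, depth and scaling, and they carry no p. Ces1c was most like the prolactin receptor Prlr (r = 0.989), the cytochrome P450 Cyp2a12 (0.978) and the mannose-binding lectin Mbl2 (0.976). Ces3a was most like the cytochrome P450 Cyp2j6 (0.984), Trip4 (0.975) and Pwwp2a (0.965), and Ces2a most like Uri1 (0.979), Map2k4 (0.920) and Pwwp2a (0.917). None of these 8 transcripts was called between genotypes by limma, with the lowest adjusted p at 0.0575 for Mbl2 (315 in KO, 553 in WT).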

How the data were processed

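Livers of 4 KO and 5 WT mice were sequenced from the uncrosslinked share of pulverised tissue, per the labels' protocols. The values were made with kallisto and sleuth on mm10, per the submitters' processing notes. Neither versions nor transcript set nor filters are given. The deposited signal per library is a normalised abundance that does not have equal column sums, so it is not TPM, which the planned analysis had assumed; the test planned for TPM was used. The authors' p-value and q-value columns cover 13540 transcripts. The authors' deposited coefficients are natural log values of WT minus KO, turned here to log2 of KO minus WT.

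The fit, in limma 3.58.1 under R 4.3.3, took log2(value + 1) of transcripts whose mean over all 9 livers was 1 or more, with a variance trend and Benjamini-Hochberg adjustment at 0.05 over 10950 transcripts. Genotype was the only term, and sex was added for the sex contrast. Folds are ratios of means, and log2 differences on this scale understate changes of low transcripts. Each animal is 1 replicate. Members and gene lists were chosen with earlier results of these data known. Named genes were all members, every other family gene, up to 4 per side of each list with the smallest adjusted p, the 3 nearest tested genes on each side of each array (1 of them is not reported here) and the 3 most similar transcripts. Reads per library were recovered from the spacing of low values, of which 55.0% to 69.9% came out whole within 0.1 read; no count test was used. Sequences and positions came from GENCODE M21 (GRCm38), 1-based. On simulated data (10950 transcripts, 200 changed) the genotype fit recovered 85% of log2 changes of 1 and 94% of 2, with 16 of 195 calls false. For the sex fit these were 83% and 97%, with 5 of 185 false. Changed transcripts were drawn only from those with a mean log2 value above 2, so recovery of lower ones was not simulated. They were also a far smaller share than the 35.9% called between genotypes in the data. Alternatives were other pseudocounts, filters and scalings, no variance trend, each library left out, a replicate block, sex as a covariate, 1 sex or genotype alone and the authors' q.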

Additional observations from a re-analysis of the deposited data

Results flagged for a closer look

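Of 20 groups of 4 or 5 livers, 1 had a value that stood far from the rest. Ces1e was at 100.2 in WT replicate 4, with the gap to the next WT liver at 0.848 of the group's range, above the critical value of 0.71 for 5 livers. About 1 group in 20 is expected to pass this limit by chance. Without that library the log2 difference of Ces1e (KO minus WT) was -1.17, against -1.31 with it.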

How the results depend on the processing

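The count of transcripts called between genotypes was 3934 and became 2589 with a minimum mean of 5 and 2336 among males alone, both of which test fewer transcripts or livers. Leaving out each library in turn gave 3114 to 4054, and the authors' q gave 3413. The members' median log2 difference was -0.60 to -0.43 with single libraries left out and -0.088 with equal totals. Between the sexes 50 transcripts were called, 28 with no filter, 85 with equal totals, and 27 to 142 with single libraries left out, the most without KO replicate 1, the only KO female. Same-numbered livers did not deviate together (r = 0.229, 0.0823, -0.184 and 0.113), and the labels do not say what a number marks. With the replicate block, in which WT replicate 5 has no partner, 3602 transcripts were called, the members' median was -0.60 and Ces2c had an adjusted p of 0.0114. The block sets KO males 2 and 3 beside WT females 2 and 3, so it does not hold sex constant. With sex as a covariate Ces2c did not pass the threshold, as given above. Without KO replicate 1, and in WT livers alone, Ces2c passed the threshold between the sexes with a log2 difference of 1.69. The estimate is the same by construction, since without the only KO female the sex difference comes from WT livers alone. Depth limits Ces4a, Ces2b and the other family genes under the minimum mean. The cause of these changes was not tested.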
